A study of Mus musculus with 36 samples.

Results

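The libraries of replicate 1 were compared with those of replicate 2 in the METTL3 and YTHDC1 degron lines, with the depletion arm and the chase time held equal. The members were chosen by the line and the replicate number alone and comprised 24 of the 36 libraries of the series, 12 of replicate 1 and 12 of replicate 2. Each line gave 6 libraries per replicate, 1 for each combination of arm and chase time, so that 12 pairs of libraries differed only in the replicate. According to the study's methods, the wells of a biological replicate were split from one batch of cells and divided at random among the conditions. Replicate 2 against replicate 1 is therefore 1 culture batch against another within a line, and harvest, RNA handling and library preparation may have followed the same division. The sources used here do not say whether replicate 1 of the METTL3 line was cultured or prepared together with replicate 1 of the YTHDC1 line.

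Both lines are mouse embryonic stem (ES) cells with an interspecific Cast x 129S background and 2 X chromosomes, in which a TetOn promoter replaces the endogenous Xist promoter on the 129S allele and Xist carries a Bgl stem loop. The degradation tag is fused to METTL3, the catalytic subunit of the m6A writer, in clone 12D, and to YTHDC1, the nuclear m6A reader, in clone Y12H, so each line is 1 clone. The Ctrl arm received no dTAG-13, whereas the dTAG arm received it from 2 h before doxycycline. All cells were given 1 µg/ml doxycycline for 20 h and then for a further 4 h together with 500 µM 4-thiouridine (4sU), and were collected directly (0 min) or after a chase of 90 or 180 min in 50 mM uridine. The cells were maintained on mitomycin-inactivated fibroblast feeders in serum and LIF and were preplated to remove feeders before the experiment. Iodoacetamide treatment makes incorporated 4sU read as T-to-C mismatches (SLAM-seq), but the comparison made here used the read count of each gene, new and old RNA together.

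ES cells in serum and LIF are a fluctuating population. Their naive factors, such as the KLF family, and the genes that answer to growth factors, cell contact and Wnt or BMP signalling vary with density, passage and serum, and immediate early genes respond to handling within minutes. Independently of the cells, the recovery of a transcript in a library is known to depend on its base composition, and this dependence can differ between preparations. Total RNA was read, so that fewer cells expressing a gene and less RNA per cell cannot be told apart.

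Total counts ranged from 9547507 to 18652000 per library in the METTL3 line and from 10397753 to 16129632 in the YTHDC1 line. The pluripotency factors that define the cell type were abundant in every group of 6 libraries. Pou5f1, which encodes OCT4, had median values of 512 and 566 CPM (read counts scaled to a common library size) in replicates 1 and 2 of the METTL3 line and of 734 and 649 CPM in the YTHDC1 line, and Nanog had medians between 199 and 298 CPM. The RNA of Mettl3 and Ythdc1 does not check the depletion, since the degron acts on the protein. Mettl3 RNA differed by −0.10 ± 0.08 (log2, standard error) between the replicates of the METTL3 line and Ythdc1 RNA by 0.04 ± 0.06 between those of the YTHDC1 line, and neither passed the test.

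Most genes differed between the replicates of a line, and nearly all genes called in both lines had the same direction. The pluripotency factor gene Klf5, the immediate early genes Junb and Myc, the Wnt target Axin2 and the imprinted gene Dlk1 were among those higher in replicate 2 of both lines, and Rpl39 of the ribosome, Cox7b of the respiratory chain, Insig1 of sterol regulation and Ccnb1 of mitosis among those higher in replicate 1. In edgeR's quasi-likelihood test with Benjamini-Hochberg adjustment, 8852 of 14413 genes tested differed between the replicates of the METTL3 line at an adjusted p below 0.05 (61.4%), 4603 of them higher in replicate 2 and 4249 higher in replicate 1. In the YTHDC1 line 8372 of 14199 genes differed (59.0%), 4288 higher in replicate 2 and 4084 higher in replicate 1. A difference of more than 2-fold was also reached by 1288 genes of the METTL3 line (8.94%) and by 480 genes of the YTHDC1 line (3.38%). As the 6 libraries of a replicate come from one batch of cells, these p-values measure the difference between 2 particular batches against the spread between wells and do not describe batches in general.

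Of the 14046 genes tested in both lines, 6552 were called in both, and 6512 of these had the same direction (46.4%). The genes alike in both lines divided into 3335 higher in replicate 2 (23.7%) and 3177 higher in replicate 1 (22.6%), and 40 genes had opposite directions. Over 2-fold in both lines were 388 genes (2.76%), of which 350 were higher in replicate 2 and 38 higher in replicate 1. Across the 14046 genes, the replicate differences of the METTL3 and YTHDC1 lines had a Pearson correlation of 0.853. This describes genes of 1 pair of batches in each line, and genes are not independent replicates. The differences were larger in the METTL3 line, with a median size among alike genes of 0.62 (log2) against 0.43, and 5367 of the 6512 genes had the larger size in the METTL3 line.

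**Figure D1:**
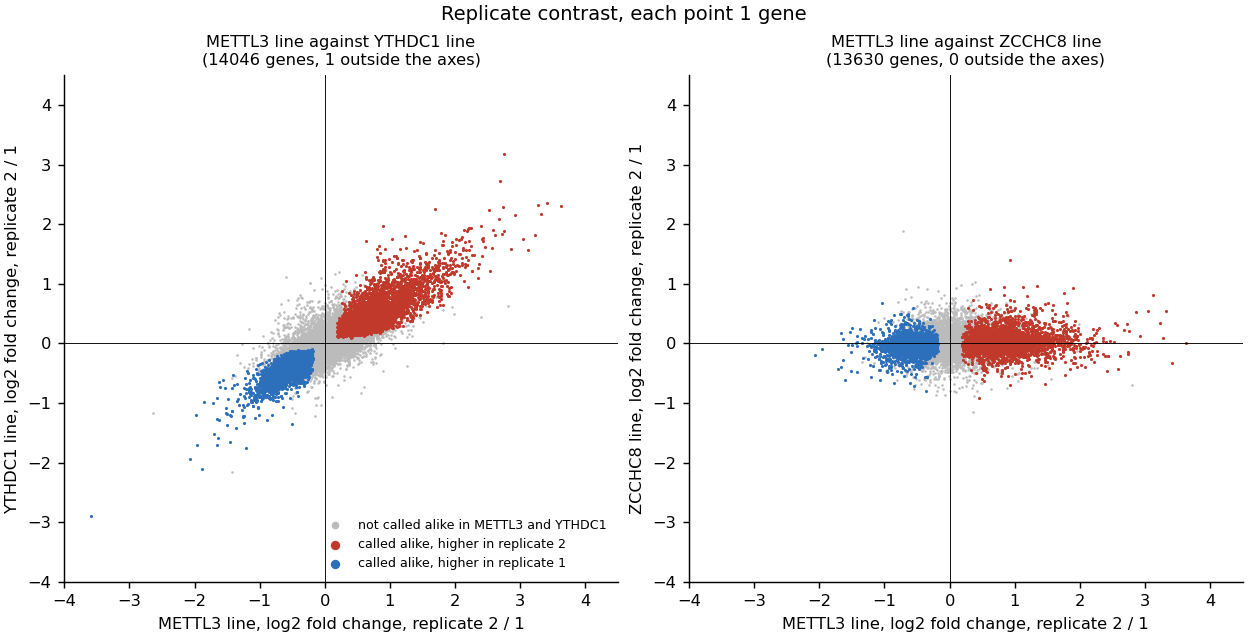
Log2 fold change of replicate 2 over replicate 1 of each gene, with the METTL3 line on the x axis. The YTHDC1 line, where the correlation over 14046 genes was 0.853, can be set beside the ZCCHC8 line, where it was 0.150 over 13630 genes.

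The third line of the series, with the tag on ZCCHC8 of the NEXT complex, showed this pattern only weakly. The libraries of this line held 5274684 to 10257631 reads each, against 9547507 to 18652000 in the first 2 lines. Between its replicates 1476 of 13962 genes were called (10.6%), and 11 of these differed by more than 2-fold. Its replicate differences had Pearson correlations across 13630 genes of 0.150 with the METTL3 line and 0.148 with the YTHDC1 line. Of the 6462 alike genes that were tested in the ZCCHC8 line, 822 were called there (12.7%), near the 10.6% of all genes. Their direction was the same for 588 and opposite for 234. Those higher in replicate 2 divided into 264 and 182, and those higher in replicate 1 into 324 and 52. The 3335 genes higher in replicate 2 had median differences of 0.78 and 0.51 in the METTL3 and YTHDC1 lines and of 0.02 in the ZCCHC8 line. Col4a2 (0.67), Tbx3 (0.59), Klf4 (0.34) and Klf5 (0.21) were among those also called higher in the ZCCHC8 line. Of the gene lists described below, replication-dependent histones had 11 members called higher and 0 lower in that line. Imprinted genes had 1 called higher and 11 lower there, opposite to the first 2 lines.

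The 12 genes with the largest shared difference in each direction are named here. The sequences of 6 of them are shown because base composition followed the replicate contrast, and because they cover both directions. Each is the middle 90 bases of the coding sequence of the longest GENCODE transcript (mm10), 5′ to 3′, with every C in capitals. Tcf7l1 (chr6:72626378-72789254, minus strand), Klf5 (chr14:99298691-99315036, plus strand) and Pcsk1n (chrX:7919822-7924410, plus strand) were higher in replicate 2. Rpl22l1 (chr3:28805436-28807424, plus strand), Timm8a1 (chrX:134537256-134541865, minus strand) and Rpl39 (chrX:37082520-37085402, minus strand) were higher in replicate 1.
Tcf7l1: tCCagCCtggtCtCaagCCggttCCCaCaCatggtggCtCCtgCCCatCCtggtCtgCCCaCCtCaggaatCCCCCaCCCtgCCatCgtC
Klf5: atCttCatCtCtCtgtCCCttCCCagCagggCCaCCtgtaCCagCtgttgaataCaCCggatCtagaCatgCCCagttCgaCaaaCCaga
Pcsk1n: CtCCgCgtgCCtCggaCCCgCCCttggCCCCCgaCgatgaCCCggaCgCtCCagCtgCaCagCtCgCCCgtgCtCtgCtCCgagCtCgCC
Rpl22l1: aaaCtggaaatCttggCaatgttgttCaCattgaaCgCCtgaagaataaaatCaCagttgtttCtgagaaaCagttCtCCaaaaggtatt
Timm8a1: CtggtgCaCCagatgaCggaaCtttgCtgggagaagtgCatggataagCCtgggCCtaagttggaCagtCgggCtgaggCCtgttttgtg
Rpl39: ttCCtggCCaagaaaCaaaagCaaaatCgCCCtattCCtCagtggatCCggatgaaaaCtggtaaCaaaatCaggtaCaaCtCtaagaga
The 90 bases held 40, 31 and 43 C in the genes higher in replicate 2, in the order given, and 15, 17 and 21 C in those higher in replicate 1. Over the whole coding sequence the C content was 35.3%, 34.6% and 37.2% against 17.1%, 26.2% and 22.4%. In the longest transcript, however, Klf5 had a GC content of 47.9%, below Timm8a1 (48.8%), Rpl39 (48.7%) and the 49.9% median of all genes. Klf5 thus does not follow the relation to GC content. Nor do Mzb1 (54.0%), Gm10036 (53.2%) and Gm20538 (52.0%), which are named below as higher in replicate 1 but lie above that median.

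Klf5, a KLF-family factor of naive pluripotency and proliferation, had 9.64 CPM at the lowest, 12.1 at the median and 40.4 at the highest in replicate 1 of the METTL3 line, against 43.2, 56.5 and 63.3 CPM in replicate 2. In the YTHDC1 line Klf5 had 15.9, 18.96 and 25.9 CPM in replicate 1 against 56.6, 67.4 and 79.1 CPM in replicate 2. The groups did not overlap in either line. The difference was 1.84 ± 0.21 (log2 ± SE, adjusted p = 9.78e-06) in the METTL3 line and 1.81 ± 0.08 (adjusted p = 5.19e-12) in the YTHDC1 line. The single high library of replicate 1, at 40.4 CPM, was the Ctrl library without chase.

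Tcf7l1 encodes an HMG-box repressor of Wnt and pluripotency genes that favours exit from the naive state. It had 0.923, 1.93 and 9.71 CPM (lowest, median and highest) in replicate 1 and 9.02, 13.2 and 20.2 CPM in replicate 2 of the METTL3 line. The corresponding values in the YTHDC1 line were 1.87, 3.32 and 3.91 CPM against 9.37, 11.7 and 16.4 CPM. The groups overlapped only through the Ctrl library without chase of the METTL3 line, and the differences were 2.39 ± 0.24 (adjusted p = 1.97e-06) and 1.98 ± 0.14 (adjusted p = 9.52e-10).

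Pcsk1n, which encodes the proSAAS precursor that inhibits a prohormone convertase, was the most different gene of the METTL3 and YTHDC1 lines by the smaller of both fold changes. It ranged from 0.591 to 1.45 CPM in replicate 1 and from 5.42 to 9.99 CPM in replicate 2 of the METTL3 line, and from 0.764 to 4.96 CPM against 6.84 to 11.6 CPM in the YTHDC1 line. The differences of 3.28 ± 0.21 and 2.33 ± 0.21 were accompanied by one of 0.09 ± 0.12 in the ZCCHC8 line. Of the other genes higher in replicate 2 with the largest shared differences, Foxp4 encodes a forkhead factor (2.22 and 1.95), Creb3l1 a membrane-bound bZIP factor (2.15 and 1.91), Reep6 a receptor expression-enhancing protein of the endoplasmic reticulum (2.52 and 2.24), and H1fx a linker histone variant (2.72 and 1.84). Begain (2.25 and 1.93), Fam222a (2.59 and 1.90) and Ccdc92 (2.11 and 1.79) were also among them. Hist1h2af, a histone H2A gene, ranged from 1.54 to 3.70 CPM in replicate 1 and from 28.9 to 45.8 CPM in replicate 2 of the METTL3 line. It has near-identical copies, and reads that map to several copies were discarded, so its value is uncertain. Gm42418, which lies in a ribosomal RNA-like locus, differed by 2.61 and 1.83, and its value depends on how ribosomal reads were removed.

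Rpl22l1, a paralogue of the ribosomal protein gene Rpl22, led the genes higher in replicate 1. It had 204, 273 and 316 CPM (lowest, median and highest) in replicate 1 of the METTL3 line and 61.1, 66.5 and 80.5 CPM in replicate 2, and 189, 237 and 281 CPM against 61.3, 73.2 and 84.1 CPM in the YTHDC1 line. No library of replicate 2 reached the lowest of replicate 1, and the differences were −1.96 ± 0.09 (adjusted p = 3.35e-10) and −1.71 ± 0.05 (adjusted p = 2.77e-15). Rpl39, a protein of the large ribosomal subunit, ranged from 402 to 545 CPM in replicate 1 and from 179 to 217 CPM in replicate 2 of the METTL3 line, and from 412 to 513 CPM against 174 to 218 CPM in the YTHDC1 line. Its differences were −1.25 ± 0.09 and −1.21 ± 0.04. Timm8a1, a chaperone of the mitochondrial intermembrane space, differed by −1.66 ± 0.11 and −1.27 ± 0.08, and Sdhaf4, an assembly factor of succinate dehydrogenase, by −1.43 ± 0.12 and −1.13 ± 0.08.

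Dynlt1b, a dynein light chain (−1.63 and −1.29), Pnp2, a purine nucleoside phosphorylase (−1.25 and −1.23), Smim26 (−1.44 and −1.22), Zfp472 (−1.52 and −1.08) and Mzb1 (−1.07 and −1.25) also belonged to the 12 genes named as higher in replicate 1, as did the predicted genes Gm20538 (−1.66 and −1.71) and Gm10036 (−1.37 and −1.41). Among the 24 genes named in both directions, 14 overlap the span of another annotated gene on either strand, which may affect their counts. Dynlt1b and Pnp2 have close paralogues, and reads that map to several genes were discarded, so their counts may be incomplete. Those 24 genes had the same direction in all 12 pairs of libraries, which the rule that named them required.

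**Figure D2:**
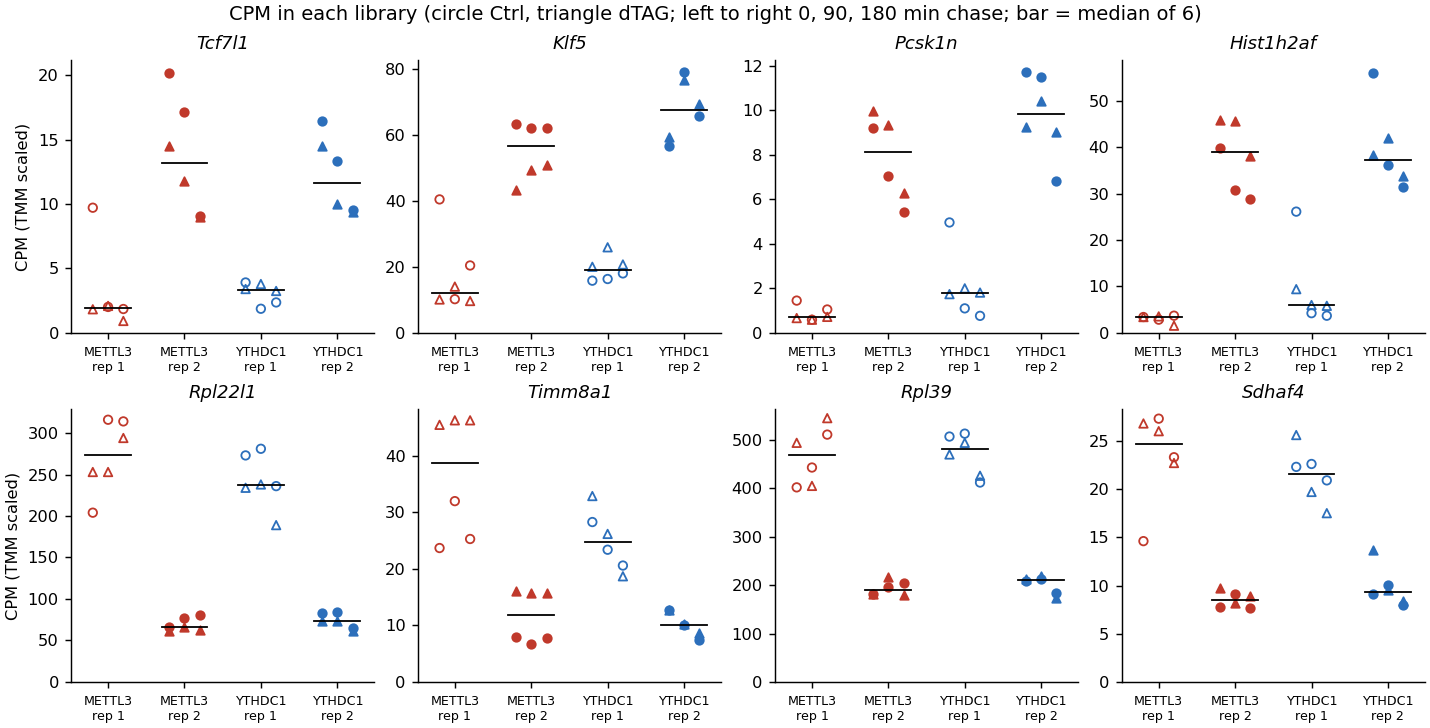
CPM of 8 of the named genes in each of the 24 libraries, by line and replicate, with circles for Ctrl, triangles for dTAG and bars for the median of 6 libraries. Tcf7l1, Klf5, Pcsk1n and Hist1h2af sat higher in replicate 2 of both lines, with the highest replicate 1 value of Klf5 at 40.4 CPM, and Rpl22l1, Timm8a1, Rpl39 and Sdhaf4 sat higher in replicate 1.

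Base composition followed the replicate contrast. The alike genes higher in replicate 2 had a median GC content of 55.5% in their longest transcript, those higher in replicate 1 of 45.1%, and all genes tested of 49.9%. Median C content was 28.0% against 21.5%, and median T content 21.8% against 27.5%. Across genes, the Spearman correlation of the replicate difference with GC content was 0.679 in the METTL3 line (14399 genes), 0.415 in the YTHDC1 line (14185 genes) and 0.169 in the ZCCHC8 line (13949 genes). In the decile of genes with the highest GC content the median difference was 0.91 for METTL3 and 0.43 for YTHDC1, and in the lowest decile it was −0.42 and −0.16. Of the genes in the highest decile, 83.6% were called higher in replicate 2 for METTL3 and 64.1% for YTHDC1, and of those in the lowest decile 2.99% and 12.4%. The response to depletion, averaged over both replicates, had Spearman correlations with GC content of −0.039 and −0.048. The difference in that response between replicates had one of 0.712 for METTL3 and of 0.089 for YTHDC1.

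**Figure D3:**
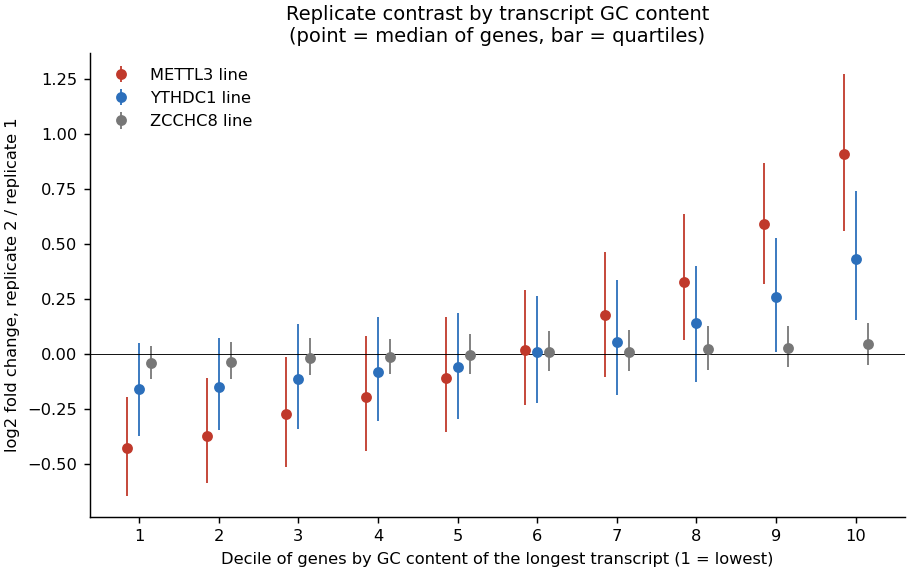
Median log2 fold change of replicate 2 over replicate 1, with quartile bars, in 10 deciles of the genes ordered by GC content, for each line. The medians climbed from −0.42 to 0.91 in the METTL3 line and from −0.16 to 0.43 in the YTHDC1 line, and stayed between −0.04 and 0.04 at the 2 ends in the ZCCHC8 line.

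The relation to base composition differed between single libraries as well as between replicates. The slope of log2(CPM + 1) on GC content, relative to the mean of the 12 libraries of a line and per 10 percentage points of GC, ran in replicate 1 of the METTL3 line from 0.06 in the Ctrl library without chase to −0.61 in the dTAG library at 180 min, and in replicate 2 from 0.11 to 0.47. In the YTHDC1 line it ran from −0.28 to 0.15 in replicate 1 and from 0.05 to 0.20 in replicate 2. Replicate 2 had the higher slope in 12 of the 12 pairs of libraries. In the METTL3 line the dTAG library lay below the Ctrl library of its chase time in replicate 1 (−0.27 against 0.06, −0.41 against −0.25 and −0.61 against −0.34) and above it in replicate 2 (0.47 against 0.29, 0.40 against 0.25 and 0.29 against 0.11). The share of T positions read as C, which records 4sU incorporation, ranged from 2.06% to 3.39% in replicate 1 and from 2.41% to 3.88% in replicate 2 of the METTL3 line, and from 2.27% to 3.67% and from 2.21% to 3.83% in the YTHDC1 line. It was higher in replicate 2 in 6 of 6 pairs of the METTL3 line and in 4 of 6 pairs of the YTHDC1 line. The part of base composition, of 4sU incorporation and of the limit on mismatches during alignment in the gene differences was not tested.

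A fit with an offset for GC content and transcript length in each library, chosen after seeing the data, was run for the replicate contrasts and the interactions, and for depletion only together with the replicate as a term. It called 7331 METTL3-line genes and 8042 YTHDC1-line genes, and 5783 alike in both (41.2%), of which 2827 were higher in replicate 2 (20.1%) and 2956 higher in replicate 1 (21.1%). The correlation between the lines was 0.833. Of the 6505 alike genes with a known GC content, 3660 (56.3%) were still called alike and in the same direction, and among the 388 alike genes over 2-fold this was so for 340 (87.6%). All 24 named genes passed the test in both lines with the offset, and 16 of them still differed by more than 2-fold in both. Klf5, at a GC content of 47.9%, changed little and differed by 1.98 and 1.92 with the offset, whereas Foxp4, at 63.4%, went from 2.22 and 1.95 to 0.84 and 1.21.

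The programs were described by lists of genes, each read against all genes tested in both lines, of which 23.7% were alike and higher in replicate 2, 22.6% were alike and higher in replicate 1, and the median difference was 0.01 in each line. Immediate early genes, which growth factors and stress switch on without new protein synthesis, had the highest medians in both lines among the lists with at least 5 genes tested. Of 18 tested, 12 were alike and higher in replicate 2 and 0 higher in replicate 1, with medians of 0.98 and 0.68 (log2) in the METTL3 and YTHDC1 lines and of 0.48 and 0.49 with the offset. Junb, an AP-1 subunit, went from a median of 3.46 to 22.1 CPM in the METTL3 line and from 7.83 to 24.9 CPM in the YTHDC1 line. Fosl1, another AP-1 subunit, went from 2.99 to 9.68 CPM and from 5.24 to 13.6 CPM. Myc, the growth regulator, went from 12.8 to 33.4 CPM and from 10.5 to 29.0 CPM, and kept differences of 1.16 and 1.26 with the offset. Zfp36, which encodes an mRNA decay factor for AU-rich transcripts, differed by 1.22 and 1.19. In the ZCCHC8 line the median of the list was 0.03.

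Targets of Wnt, BMP and YAP signalling were also more often higher in replicate 2 than all genes. Of 8 Wnt targets tested, 6 were alike and higher in replicate 2, with medians of 0.47 and 0.64, and of 0.44 and 0.60 with the offset. Axin2, a negative feedback component of the pathway, differed by 1.02 ± 0.14 and 0.90 ± 0.11, Nkd1, another feedback inhibitor, by 0.94 and 0.81, and the Wnt effectors Tcf7 and Lef1 by 0.65 and 0.92 and by 0.45 and 0.83. Of 10 BMP targets, 6 were alike and higher in replicate 2 and 1 was higher in replicate 1, and the inhibitory Smad6 (1.59 and 1.32) and the HLH factor Id1 (0.93 and 0.84) differed most. Of 9 YAP and TEAD targets, 6 were higher in replicate 2, led by Amotl2, an angiomotin family member, at 1.18 and 0.75, and Lats2, a kinase that inhibits YAP, at 0.83 and 0.62. Genes of the actin cytoskeleton and adhesion had 11 of 22 higher in replicate 2 and 1 higher in replicate 1, among them Zyx, the focal adhesion protein zyxin (1.90 and 1.50), and Fn1, fibronectin (0.82 and 0.75).

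Pluripotency genes differed in both directions. Of the 10 core genes, Utf1 and Sall4 were higher in replicate 2 and Zfp42, Dppa4 and Fgf4 higher in replicate 1. These shares of 20.0% and 30.0% lay near the 23.7% and 22.6% of all genes. Utf1, a chromatin-associated factor, went from a median of 19.6 to 107 CPM in the METTL3 line and from 30.0 to 110 CPM in the YTHDC1 line, and differed by 2.25 and 1.64, or by 1.13 and 1.11 with the offset. Sall4, a zinc-finger regulator, differed by 1.02 and 0.89, and Zfp42, which encodes REX1, by −0.53 and −0.39. With the offset Zfp42 (−0.12 and −0.13) and Dppa4 (−0.04 and −0.03) did not pass the test, and Fgf4 passed it in the METTL3 line alone. Core genes called alike with the offset were 3 higher in replicate 2, namely Utf1, Sall4 and Sox2 (0.21 and 0.38), and 3 higher in replicate 1. The latter were Trim28 (−1.075 and −0.89), Pou5f1 (−0.41 and −0.45) and Lin28a (−0.14 and −0.16). Of 18 naive genes, 7 were alike and higher in replicate 2 and 3 higher in replicate 1. With the offset these counts were 4 and 2, and the medians went from 0.12 and 0.08 to −0.08 and 0.06. Of those 7, Klf2 then differed by −0.68 and 0.08, and Esrrb and Socs3 passed the test in neither line. Klf4, a KLF partner of Klf5, differed by 0.86 and 0.93 and Tbx3, a T-box factor, by 0.67 and 0.82. Of 16 formative and primed genes, 9 were higher in replicate 2, with medians of 0.36 and 0.31, but the medians were −0.11 and 0.21 with the offset. Foxd3 (0.93 and 1.23) and Pou3f1 (0.81 and 0.84), transcription factors of the early epiblast, belonged to those 9, but with the offset Pou3f1 differed by −0.58 and 0.08 and Foxd3 by −0.39 and 0.59, and neither was called alike.

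Markers of differentiated and of feeder cells were measured because preplating may leave different numbers of other cells in a batch. Of 18 mesendoderm and endoderm genes 9, and of 7 neuroectoderm genes 5, were alike and higher in replicate 2, with 0 higher in replicate 1 in either list. Basement membrane collagens Col4a2 (1.51 and 1.14) and Col4a1 (1.09 and 0.76) and the neural factor Sox3 (1.58 and 1.02) led them. With the offset 6 of 18 and 1 of 7 were called alike, and these genes differed less, Col4a2 by 0.29 and 0.45, Col4a1 by 0.18 and 0.25, and Sox3 by 0.34, which did not pass the test, and 0.41. Of 14 fibroblast genes tested, 4 were alike and higher in replicate 2, namely the collagens Col1a1 (1.74 and 1.15) and Col5a1 (1.30 and 0.82), the surface protein Thy1 (0.70 and 0.92) and the microfibril protein Fbn1 (0.41 and 0.31), a share of 28.6% beside the 23.7% of all genes. With the offset the medians of the list went from 0.47 and 0.36 to −0.04 and 0.13. Col1a1 then differed by 0.75 and 0.59, Col5a1 by 0.29 and 0.24, and Fbn1 by −0.12 and −0.04, which did not pass the test. The summed level of all 20 fibroblast genes ranged from 75.6 to 105 CPM in replicate 1 and from 109 to 172 CPM in replicate 2 of the METTL3 line, and from 75.5 to 105 CPM against 107 to 145 CPM in the YTHDC1 line. The groups did not overlap in the sum, which was taken from CPM without the offset. The list members Dcn, Lum, Postn and Prrx1 had medians at or below 0.458 CPM in all 4 groups. Among members too low to be tested, Acta2 went from a median of 0.556 to 1.185 CPM in the METTL3 line and from 0.138 to 0.664 CPM in the YTHDC1 line. Col3a1 went from 0.103 to 0.373 and from 0.044 to 0.112 CPM. Dcn went from 0.458 to 0.379 and from 0.137 to 0.280 CPM, and Lum from 0.081 to 0.039 CPM in the METTL3 line. The part of other cell types in the gene differences was not tested.

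Genes of the ribosome and of respiration had the lowest medians in the YTHDC1 line among the lists with at least 5 genes tested. Of 41 cytosolic ribosomal protein genes, 25 were alike and higher in replicate 1 and 0 higher in replicate 2, with medians of −0.35 and −0.50, and of −0.23 and −0.32 with the offset. Rpl10 went from a median of 798 to 424 CPM in the METTL3 line and from 927 to 497 CPM in the YTHDC1 line, and Rps27 from 421 to 236 CPM and from 455 to 250 CPM. Of 40 nuclear genes of oxidative phosphorylation, 23 were higher in replicate 1 and 2 higher in replicate 2, with medians of −0.39 and −0.48. The cytochrome c oxidase subunits Cox7b (−0.99 and −0.88) and Cox7a2 (−0.95 and −0.91) and the respiratory chain genes Ndufa4 (−0.92 and −0.80) and Sdhd (−0.80 and −0.88) differed most. With the offset 21 of these 40 genes were higher in replicate 1. In the ZCCHC8 line the medians of the ribosomal and respiratory lists were −0.01 and 0.02.

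Cholesterol synthesis, cell cycle and protein folding genes had more alike members higher in replicate 1 than in replicate 2. Of 23 SREBP2 targets of cholesterol synthesis, 9 were higher in replicate 1 and 3 higher in replicate 2, and 11 and 0 with the offset. Msmo1, a sterol methyl oxidase, went from a median of 150 to 76.0 CPM in the METTL3 line and from 119 to 75.02 CPM in the YTHDC1 line, and Insig1, the sterol-dependent retention factor of SREBP, from 99.1 to 62.2 CPM and from 117 to 70.5 CPM. Of 22 genes of G2 and M phase, 11 were higher in replicate 1, among them Ccnb1, cyclin B1 (−1.04 and −0.97), Top2a, DNA topoisomerase II (−0.87 and −0.65), and Cdk1 (−0.77 and −0.61). The mitotic kinase gene Plk1 went the other way, at 1.20 and 0.86. Of 20 S phase genes, 8 were higher in replicate 1, led by the licensing inhibitor Gmnn (−0.81 and −0.62), and of 16 genes of the unfolded protein response 7 were, led by Xbp1 (−0.72 and −0.48), the factor activated by IRE1 splicing. With the offset, 10 genes of G2 and M phase were higher in replicate 1 and 4 higher in replicate 2. The corresponding counts were 9 and 3 for S phase, and 5 and 3 for the unfolded protein response.

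Among 25 imprinted genes tested, 9 were alike and higher in replicate 2 and 1 higher in replicate 1. Dlk1, a non-canonical Notch ligand expressed from the paternal allele, went from a median of 3.62 to 13.4 CPM in the METTL3 and from 3.15 to 10.1 CPM in the YTHDC1 line, and differed by 1.45 and 1.47 with the offset. Plagl1, a zinc-finger regulator of growth (0.87 and 0.86), and Peg10, a retrotransposon-derived gene of the placenta (0.85 and 1.05), were also higher in replicate 2. Of 37 replication-dependent histone genes, whose mRNAs mostly lack a poly(A) tail, 10 were higher in replicate 2 with medians of 0.88 and 0.28. This share of 27.0% lay near the 23.7% of all genes. With the offset, however, 17 of the 37 were higher in replicate 2 and 4 higher in replicate 1, beside 20.1% and 21.1% of all genes. The medians were then 0.71 and 0.32. Near-identical copies make the values of single histone genes uncertain. Of 16 m6A writers, readers and erasers, 5 were higher in replicate 2 (31.25%) and 2 higher in replicate 1 (12.5%), beside 23.7% and 22.6% of all genes. The writer-complex genes Cbll1 (0.69 and 1.04) and Zc3h13 (0.85 and 0.78) led those higher in replicate 2. Xist itself did not pass the test between replicates, at 0.22 ± 0.10 for METTL3 and 0.17 ± 0.13 for YTHDC1, and with the offset it passed in the METTL3 line alone, at 0.25.

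**Figure D4:**
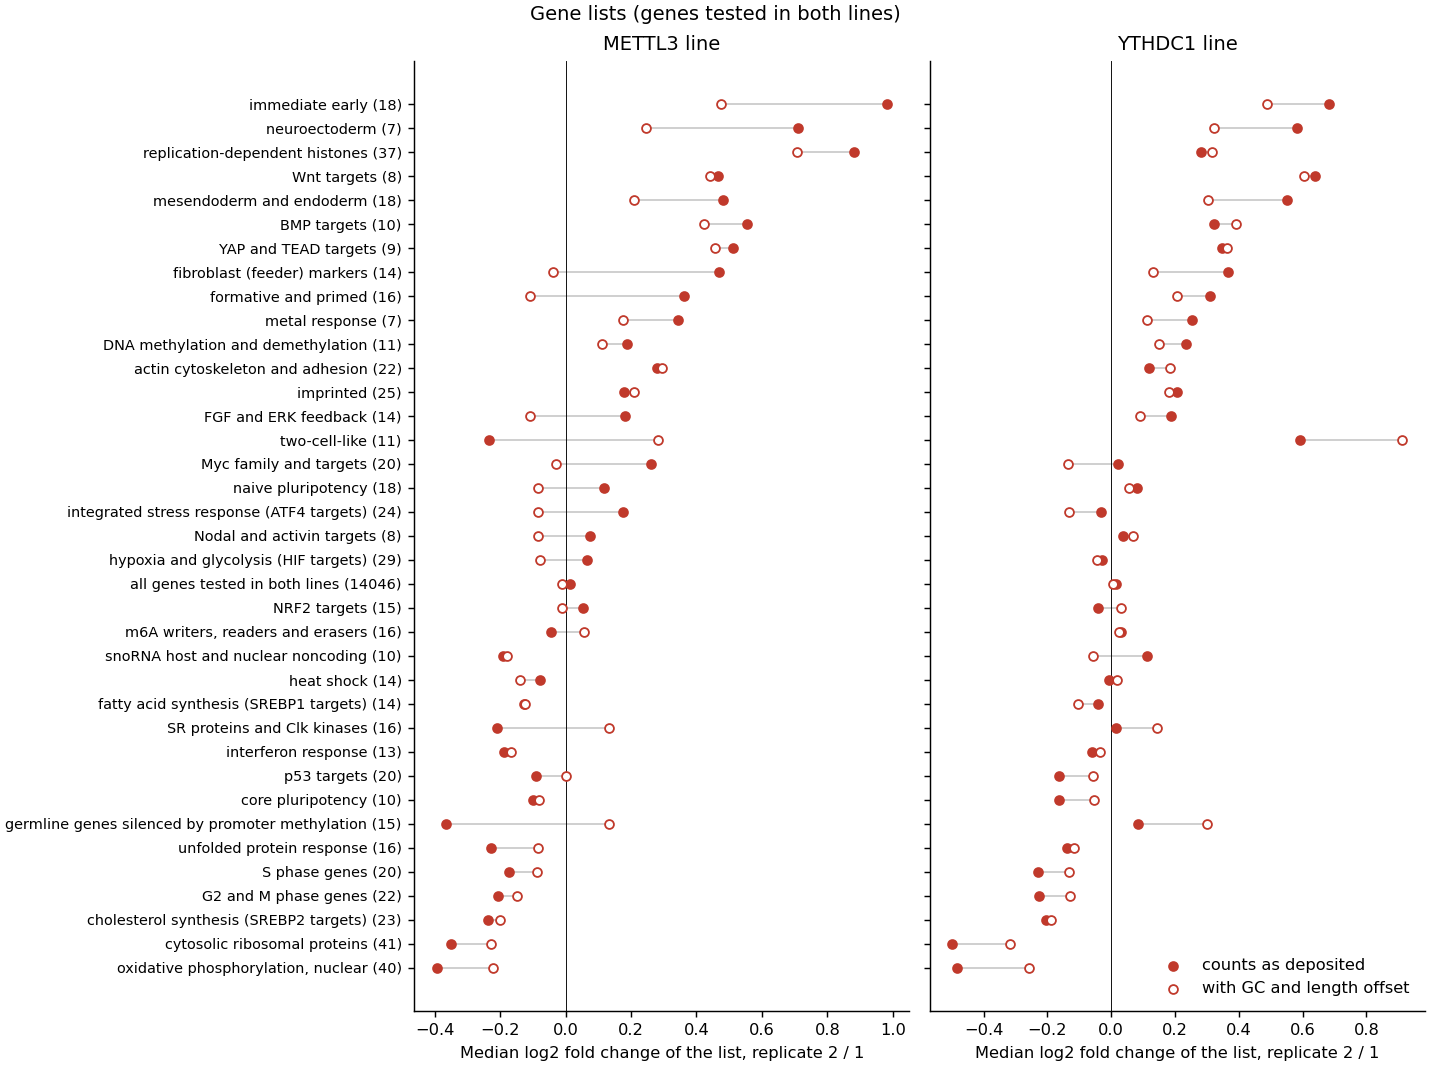
Median log2 fold change of replicate 2 over replicate 1 for each gene list in the METTL3 and YTHDC1 lines, from counts as deposited (filled) and with the GC and length offset (open), with the number of genes tested in parentheses. Immediate early genes had the medians 0.98 and 0.68, and ribosomal protein genes −0.35 and −0.50.

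Chromosomes differed less with the offset than without it. Median differences per chromosome ran from −0.21 for the X chromosome to 0.22 for chromosome 7 in the METTL3 line and from −0.08 to 0.11 in the YTHDC1 line, and with the offset from −0.06 to 0.04 and from −0.03 to 0.08.

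The replicate difference itself differed between the METTL3 and YTHDC1 lines in 1125 of 14046 genes (8.01%), as tested by the interaction of line and replicate. The 1125 genes included 592 alike genes, of which 583 had the larger size in the METTL3 line, and 38 of the 40 genes called in opposite directions. The 760 genes with an interaction below 0, that is with the replicate difference lower in the YTHDC1 line, had a median GC content of 57.7%, and the 365 above 0 one of 42.5%. With the offset 69 genes were called, 39 of them among the 1125. With Ctrl libraries only 0 genes were called by edgeR, and 409 had an unadjusted p below 0.05. DESeq2 called 1656 genes over all libraries and was not run on the Ctrl libraries alone.

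The 6 genes with the largest interaction among those called in opposite directions were small in their differences. Spic, an ETS factor, ranged from 4.65 to 12.6 CPM in replicate 1 and from 2.77 to 7.11 CPM in replicate 2 of the METTL3 line, and from 1.91 to 3.63 CPM against 2.81 to 6.55 CPM in the YTHDC1 line. The groups overlapped in both lines, and the differences were −0.63 ± 0.16 and 0.53 ± 0.15. Pramel7, a gene of the inner cell mass that counters DNA methylation, differed by −0.37 ± 0.15 and 0.52 ± 0.11, Id4, an inhibitor of bHLH factors, by −0.55 and 0.27, and the zinc transporter gene Slc39a3 by 0.74 and −0.32. The predicted genes Gm21761 (−0.62 and 0.26) and Gm5662 (−0.57 and 0.27) also had opposite signs. With the offset, the METTL3 line passed the test for Gm21761 only, at −0.26, among these 6 genes. The two-cell-like list held 4 genes higher in replicate 2 and 1 higher in replicate 1 of 11 tested, and 2 with opposite signs, and its members Usp17lc (1.04 and 1.76) and Usp17le (0.90 and 1.39) have close copies, so that their values are uncertain.

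The remaining question was whether the genes called after depletion were among those that varied with the batch. In the METTL3 line, the comparison of dTAG with Ctrl without the replicate as a term called 2898 genes (20.1%), and 1124 of these, 38.8%, were also called between replicates, against 61.4% of all genes tested. In the YTHDC1 line it called 746 genes (5.25%), and 225 of these, 30.2%, were called between replicates, against 59.0% of all genes. Seen from the other side, 12.7% of the replicate-called genes of the METTL3 line and 2.69% of those of the YTHDC1 line were called after depletion. A gene that differs between replicates has a larger residual spread in this fit by construction, so a lower share is built into it. The replicate calls of the other line do not enter that residual, although they are correlated with those of the same line, and with them the shares were 43.4% of the METTL3 depletion calls against 59.4% of all genes, and 45.6% of the YTHDC1 depletion calls against 62.3%. With the replicate as a term of the fit, these shares in the other line were 58.5% against 59.4% and 63.5% against 62.3%.

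With the replicate block, that is with the replicate as a term of the fit, 6994 genes were called after METTL3 depletion (48.5%) and 3875 after YTHDC1 depletion (27.3%). All genes called without the block were also called with it. The share called between replicates was now 60.5% of the METTL3 depletion calls, against 61.4% of all genes, and 61.5% of the YTHDC1 depletion calls, against 59.0%. Of the depletion calls over 2-fold, 51.4% were called between replicates for METTL3 and 26.6% for YTHDC1. Of the 4096 genes gained in the METTL3 line by the block 75.8% were called between replicates, and of the 3129 gained in the YTHDC1 line 68.9%. The block takes the replicate difference out of the residual spread, so a higher share among the genes gained is built into this comparison. The genes gained had a median response to depletion of 0.39 (log2, absolute) in the METTL3 line and of 0.26 in the YTHDC1 line, below the 0.72 and 0.56 of genes called in both fits. Genes called between replicates by more than 2-fold made up 1.79% of the METTL3 depletion calls without and 7.72% with the block, and 15.4% of those over 2-fold with the block, against 8.94% of all genes. In the YTHDC1 line the corresponding shares were 0.0%, 1.86% and 3.67%, the last being 4 genes, against 3.38% of all genes. Within 3 equal classes of genes by mean level, from low to high, the shares without the block were 32.2%, 43.0% and 42.5% of depletion calls against 48.2%, 65.6% and 70.4% of all genes in the METTL3 line, and with the block they were 47.9%, 63.7% and 68.7%. The YTHDC1 shares were 42.0%, 61.05% and 75.1% with the block, against 40.5%, 63.4% and 73.04% of all genes.

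**Figure D5:**
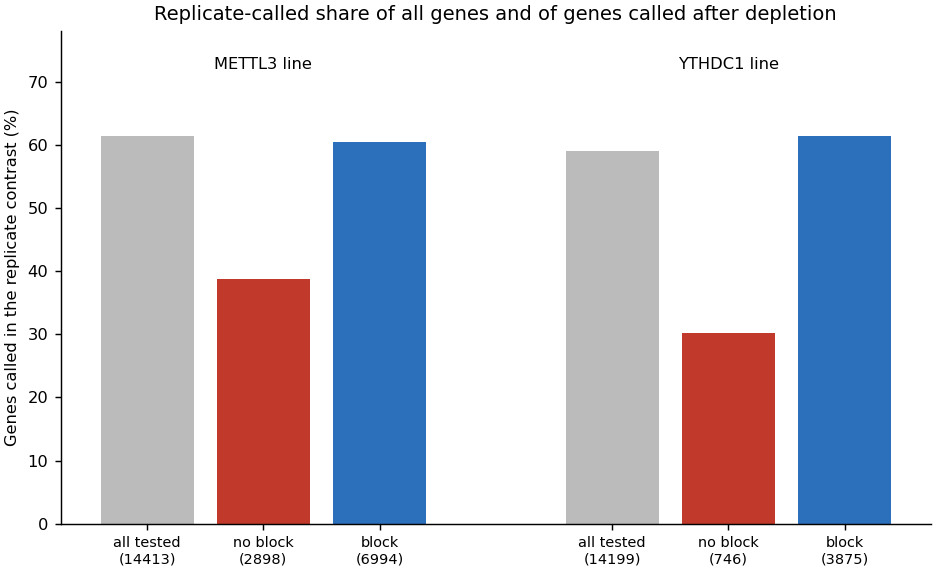
Percentage of genes called between replicates among all genes tested (grey), among genes called after depletion without the replicate block (red) and with it (blue), in the METTL3 and YTHDC1 lines, with the number of genes in parentheses. The red bars, at 38.8% and 30.2%, stood below the grey ones, at 61.4% and 59.0%, and the blue bars stood at 60.5% and 61.5%.

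The genes named for their response to depletion are described with both differences, though the rule that named them, by a large response and a call without the block, disfavours genes with a large replicate difference. After METTL3 depletion, Eras, an ES-cell Ras gene, differed by 2.20 ± 0.18 (dTAG minus Ctrl, log2) and between replicates by −0.30 ± 0.11, and Trim16, an E3 ligase gene, by 2.48 ± 0.19 and 0.09 ± 0.16. Ccdc160 responded by 1.91 with a replicate difference of −0.09, and Hpdl, a mitochondrial dioxygenase-like gene, by 2.31 with a replicate difference of 0.69. Rgs14, a regulator of G-protein signalling, responded by −2.30 ± 0.33 without the block and by −2.35 ± 0.16 with it, as its replicates differed by 0.82 ± 0.16. Vipr1, a receptor for vasoactive intestinal peptide (−2.62), Slco2b1, an organic anion transporter (−2.35), and Apol8 (−2.01) had replicate differences of 0.34, 0.41 and 0.47. With the offset the replicate differences of Hpdl (−0.09), Vipr1 (−0.17) and Slco2b1 (0.26) did not pass the test, and that of Ccdc160 did, at 0.50.

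After YTHDC1 depletion, Cebpz, a nucleolar CCAAT-binding factor gene, differed by −1.999 ± 0.087, against a replicate difference of −0.14 ± 0.05. Mipol1 (−1.35) and Irgq (−1.31) had replicate differences of 0.03 and 0.06, which did not pass the test, and the predicted gene Gm31693 (−1.41) one of −0.77. Of the genes that increased, Cntf, a cytokine of the LIF family (1.47), Acot1, an acyl-CoA thioesterase (0.95), and Sntb1, a syntrophin (0.95), had replicate differences of −0.41, −0.26 and 0.70, and Rab39b, a vesicle GTPase gene (0.95), one of −0.12. With the offset the replicate differences of Mipol1 (0.19) and Irgq (−0.31) passed the test, and those of Cebpz (0.02), Cntf (−0.09) and Acot1 (−0.07) no longer did. The rule that named these 16 genes required 1 direction in 6 of 6 pairs of libraries and a call with and without the block.

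Whether the response to depletion differed between batches was tested by the interaction of arm and replicate. In the METTL3 line 702 of 14413 genes had such an interaction (4.87%), 503 with the higher response in replicate 2 and 199 with the lower. Of the 702 genes, 319 (45.4%) were called after depletion with the block and 553 (78.8%) between replicates. The genes above 0 had a median GC content of 57.4% and those below 0 of 39.6%, and with the offset 4 genes were called. In the YTHDC1 line 0 of 14199 genes were called by edgeR (0.0%), 741 had an unadjusted p below 0.05, and DESeq2 called 0. The largest interactions of the METTL3 line among expressed genes were those of Zxdb, an X-linked zinc-finger gene, at −1.51 ± 0.31, of Efemp2, which encodes the elastic-fibre protein fibulin-4, at 1.25 ± 0.28, and of the zinc-finger gene Gm14322, at −1.20 ± 0.19.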

How the data were processed

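RNA of 36 SLAM-seq libraries of mouse ES cells was measured by the authors with the Illumina TruSeq stranded total RNA kit, and 24 libraries of 2 lines enter the comparison. Per the submitters' processing notes, reads were aligned to mm10 with STAR 2.5.2b. By the study's methods, ribosomal reads were removed first, multiply mapped reads were discarded, mismatches were limited, and GRAND-SLAM gave values per gene. The deposited tables hold raw read counts per gene, with no normalization. The authors' new-to-total ratio, a fraction between 0 and 1, was not used for any result. The deposited conversion and coverage signals per gene (T-to-C mismatches and covered T positions) were summed to the T-to-C share of a library. Another 288 columns of values per library were not used.

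The tables list genes with at least 1 read in a replicate, and a gene absent from a table was set to 0. Genes were kept by edgeR's filterByExpr (edgeR 4.0.16, R 4.3.3) within each line, scaled by TMM, and tested by robust quasi-likelihood fits with Benjamini-Hochberg adjustment over all genes tested. CPM are TMM scaled. The replicate contrast is replicate 2 minus replicate 1 in a fit with group (arm and chase time) and replicate. The depletion contrast is dTAG minus Ctrl with chase time, without replicate (as the main result) and with it. Interactions of line or arm with replicate were added terms. Standard errors are the absolute log2 fold change divided by the square root of F. GC, base content and length are those of the longest GENCODE M21 transcript, and the offset was fitted per library by natural splines of 5 degrees of freedom, an alternative chosen after seeing the data. DESeq2 1.42.0, RLE factors, no filter, single arms, omitted chase times and omitted replicates were further alternatives. Scripts were tested on simulated data.

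Same-numbered libraries of a line deviated together from their group means, with correlations of 0.657 to 0.953 over 15 pairs of groups in the METTL3 line and 0.668 to 0.885 in the YTHDC1 line. With the same batch of cells per replicate in the methods, the numbers were taken as pairing the arms, and blocked values are given. Total counts between 9547507 and 18652000 set the precision of low genes, and counting error is only part of it.

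Members and lists were chosen with earlier results of these data known. Genes were named by rule: at least 5 CPM on average over the 24 libraries, called alike in both lines and in 1 direction in all 12 pairs, with the 12 largest by the smaller fold change in each direction; the 6 largest interactions of opposite sign; up to 4 members per list; the 4 largest responses to depletion per line and direction, called with and without the block; and the 3 largest arm by replicate interactions. Xist, Mettl3 and Ythdc1 were checked besides, and other list members are given by value. Some items that met the rule are not reported here, though the counts include them. Lists of mitochondrially encoded genes (0 in the tables) and of 7SK and other short noncoding RNAs (1 tested) could not be described.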

Additional observations from a re-analysis of the deposited data

Results flagged for a closer look

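In 8 of 144 groups of 6 libraries checked, 1 library stood apart from the rest, and chance gives about 1 in 20. The groups covered named genes and also the T-to-C share, the slope on GC content and the total counts, and all 8 were of named genes. In 7 of these groups it was the Ctrl library of replicate 1 without chase, and in 1 that at 180 min. In the METTL3 line the Ctrl library of replicate 1 without chase had 13.2 CPM of Reep6 (median of the 6 libraries 3.05), 9.71 CPM of Tcf7l1 (1.93), 40.4 CPM of Klf5 (12.1) and 14.6 CPM of Sdhaf4 (24.7). In the YTHDC1 line the same kind of library had 4.96 CPM of Pcsk1n (1.78), 26.1 CPM of Hist1h2af (5.90) and 11.1 CPM of Gm42418 (2.46). The Ctrl library at 180 min of replicate 1 of the METTL3 line had 5.95 CPM of Gm42418 (1.46). Each of these values lay between the other libraries of replicate 1 and those of replicate 2, or within the range of replicate 2.

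The replicate difference was tested for unlike size in both lines and differed, YTHDC1 minus METTL3 (log2), for Hist1h2af by −1.24, Zfp472 by 0.46, Spic by 1.19, Slc39a3 by −1.03, Pramel7 by 0.92, Gm21761 by 0.91, Gm5662 by 0.87 and Id4 by 0.86, and in 1125 genes overall (edgeR, adjusted p between 0.0164 and 0.0372 for those named). The response to METTL3 depletion differed, replicate 2 minus replicate 1, by −1.51 for Zxdb, by −1.20 for Gm14322 and by 1.25 for Efemp2, among 702 genes with an interaction.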

How the results depend on the processing

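Counts of called genes kept within 1.5 times of those given under RLE scaling, and the replicate contrasts of the METTL3 and YTHDC1 lines also under DESeq2, no filter, each omitted chase time, the dTAG libraries alone, and without the 180 min dTAG libraries (the last chosen after seeing the data). With Ctrl libraries only, 4529, 5377 and 346 genes were called in the METTL3, YTHDC1 and ZCCHC8 lines, 3447 alike and 0 in the interaction of line and replicate, with fewer libraries in each fit. A change over 2-fold left 1288, 480 and 388 genes. DESeq2 called 655 genes between ZCCHC8 replicates, 1156 after YTHDC1 depletion and 1153 for arm by replicate in the METTL3 line. Without the filter 1777 genes differed between lines, and with the GC and length offset 69 did, and 4 for arm by replicate; the cause was not tested. The replicate block raised the depletion calls to 6994 and 3875, and to 8124 and 4947 together with the offset. Leaving out 1 replicate gave 5702 to 7521 calls in the METTL3 line and 1342 to 3582 in the YTHDC1 line, with the lower count in each line without replicate 2, and the libraries left hold no replicate difference. The block changed no direction among the 16 genes named for their response to depletion, whose naming required a call in both fits, and the depletion values of other named genes were not counted.

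Of 814 values of named genes under alternatives, each in the contrast it was named for, 736 kept direction and call, 62 lost the call, 7 gained it and 9 changed sign. With the offset, Slc39a3 was −0.17, Pramel7 0.17 and Gm5662 0.0874 in the METTL3 line, Mettl3 0.0953 and 0.0631 in the METTL3 and YTHDC1 lines, and Ythdc1 0.145 in the METTL3 line. Ythdc1 was 0.0662 in the METTL3 line with Ctrl libraries only, and in the YTHDC1 line −0.0184 with dTAG libraries only and −0.038 without the 0 min libraries. Of 740 list medians, 672 moved by less than the spread over 6 pairs. Depth limited genes of a few CPM, and 1 batch per replicate limits what the p-values describe.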

Other observations

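Other programs of the fixed lists were divided between the replicates, beside 23.7% and 22.6% of all genes alike and higher in replicate 2 and in replicate 1. Of 14 genes of FGF and ERK feedback, 7 were alike and higher in replicate 2 and 1 higher in replicate 1, and of 8 Nodal and activin targets 4 and 2 were. With the offset these counts were 3 and 1 for FGF and ERK feedback, with medians of −0.11 and 0.09, and 2 and 1 for the Nodal and activin targets. Of 20 p53 targets 4 were higher in replicate 2 and 7 in replicate 1, of 24 ATF4 targets of the integrated stress response 8 and 6, of 29 HIF targets of hypoxia and glycolysis 9 and 7, and of 20 Myc family members and targets 8 and 7. With the offset the counts of these 4 lists were, in the same order, 3 and 5, 3 and 8, 6 and 9, and 3 and 9. The interferon response, with 1 and 1 of 13, and the germline genes silenced by promoter methylation, with 0 and 1 of 15, had few members alike in the METTL3 and YTHDC1 lines. Of 16 SR protein and Clk kinase genes, which regulate splicing, 2 were higher in replicate 2 and 6 in replicate 1, and of 14 heat shock genes 3 and 5. With the offset the counts were 6 and 4 for SR protein and Clk kinase genes and 3 and 4 for heat shock genes.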
